A study of Mus musculus with 16 samples.

Results

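Proteasome subunits, their activators and their assembly factors were followed in RNA from the somatosensory cortex of mice after sleep disruption (SD). The members were the 50 rows whose gene symbol starts with Psma, Psmb, Psmc, Psmd, Psme, Psmf or Psmg followed by a digit, pseudogene symbols left out, of 24421 genes listed. All 50 had reads in every library, and together they took between 0.259% and 0.298% of the reads counted on genes in a library. Psmc3ip, a partner protein of meiotic recombination, carries the letters of the rule without being a proteasome gene, and it is kept in the counts and named apart.

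The proteasome is the cell's main machine for degrading proteins that carry ubiquitin chains. Its barrel-shaped core holds outer rings of alpha subunits, which gate the entry, and inner rings of beta subunits, 3 of which (Psmb5, Psmb6 and Psmb7) cut peptides. A regulatory particle caps the core, where ATPase subunits unfold the substrate and non-ATPase subunits bind ubiquitin and remove it. Cells exposed to interferon exchange the cutting subunits for Psmb8, Psmb9 and Psmb10, and dedicated chaperones build the rings. In neurons the proteasome also turns over synaptic proteins.

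The mice were wild-type C57BL/6 animals and AcPb-/- animals, which lack a neuronal isoform of the IL1 receptor accessory protein, were 2 to 3 months old and lived in 12 h light and 12 h dark. SD lasted 8 h, from ZT20 to ZT4, by gentle handling, and controls were left undisturbed, with tissue collected at ZT4 in every group. Each group had 3 libraries with values, named by their replicate numbers: undisturbed wild-type (CTL-WT 1, 2 and 3), wild-type after SD (SD-WT 1, 2 and 4), undisturbed AcPb-/- (CTL-AcPbKO 3, 4 and 5) and AcPb-/- after SD (SD-AcPbKO 2, 3 and 4). The labels list 4 more samples, without values here, and those were not used. The AcPb-/- mice carried the deletion in the whole animal rather than in a chosen cell type, and the labels do not say whether mice shared a litter.

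Reads on genes ranged from 26504840 to 41615582 in the 6 control libraries and from 58770286 to 71857505 after SD, so depth differed between the groups. The labels call the mice male, yet Xist, the RNA of an inactive X chromosome, had over 1000 reads in 4 libraries, CTL-WT 2 and 3 and CTL-AcPbKO 4 and 5. These 4 had 0 to 2 reads of Y-linked genes, where every other library had 5105 to 10593, so by both measures they were female. They were 4 of the 6 controls and no SD library was among them, so sex is partly confounded with SD. Results are therefore also given with a term for Xist and without those libraries. Il1rap, which encodes the accessory protein, had 31.6 to 32.7 RPM (reads of a gene for every 1000000 reads on genes) in undisturbed wild-type mice and 32.3 to 35.2 in undisturbed AcPb-/- mice. Reads of the whole gene do not separate the isoforms, so this does not check the AcPb-/- label. All 6 markers of cortical excitatory neurons had reads, with a summed level of 1878 to 2021 RPM in undisturbed wild-type mice. SD-AcPbKO 4 stood apart in choroid plexus markers, summed to 347 RPM against 0.830 to 6.67 in the other 11 libraries, and in neutrophil markers, summed to 11.7 RPM against 0.2996 to 2.06.

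Per length of exon, the proteasome genes were among the abundant transcripts of the cortex. Their median in undisturbed wild-type mice was 18.4 RPKM (RPM divided by the exon length in kb), against 1.23 over the 24054 genes with an annotated length. Psmc5, an ATPase, had the highest level at 96.3 ± 2.31 (standard deviation, n = 3), followed by Psmc1 at 61.8 ± 1.84 and Psmd2 at 55.2 ± 2.1. The median was 43.6 for the 6 ATPases, 33.1 for the 7 constitutive beta subunits, 24.2 for the 11 non-ATPase subunits and 20.9 for the 8 alpha subunits. Activators and the inhibitor had a median of 7.84 and assembly factors one of 5.63. The alpha, beta and regulatory subunits that sit together in 1 particle thus differed in level per length. With the testis subunit Psma8 set aside, they ran from 6.7 ± 0.257 for Psmd11 to the level of Psmc5. Psma8 was at 0.177 ± 0.021.

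The interferon-induced beta subunits were not at one level. Psmb10 was at 16.6 ± 0.602 RPKM in undisturbed wild-type mice, below its constitutive counterpart Psmb7 at 24 ± 0.283. Psmb8 was at 0.823 ± 0.087, far below its counterpart Psmb5 at 52.1 ± 3.81, and Psmb9 at 0.327 ± 0.0623 was far below Psmb6 at 33.1 ± 0.788. Psmb11, the beta subunit of thymic epithelium, was the lowest of all members at 0.0356 ± 0.00235, with 95 reads in the 12 libraries together. The level of Psmb8 per length was 1.59% ± 0.213 of that of Psmb5 (standard deviation, n = 3). Psmb9 was at 0.991% ± 0.199 of Psmb6, and Psmb10 at 69.4% ± 1.79 of Psmb7. These ratios depend on the annotated exon lengths, which were 3381 bases for Psmb8 and 899 for Psmb5, and 1705 for Psmb10 and 3421 for Psmb7. For Psmb9 and Psmb6 they were 3660 and 1872. In reads of the 12 libraries together, Psmb8 had 1336 against 23435 for Psmb5. Psmb9 had 545 against 34894 for Psmb6, and Psmb10 had 15686 against 42157 for Psmb7.

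**Figure D1:**
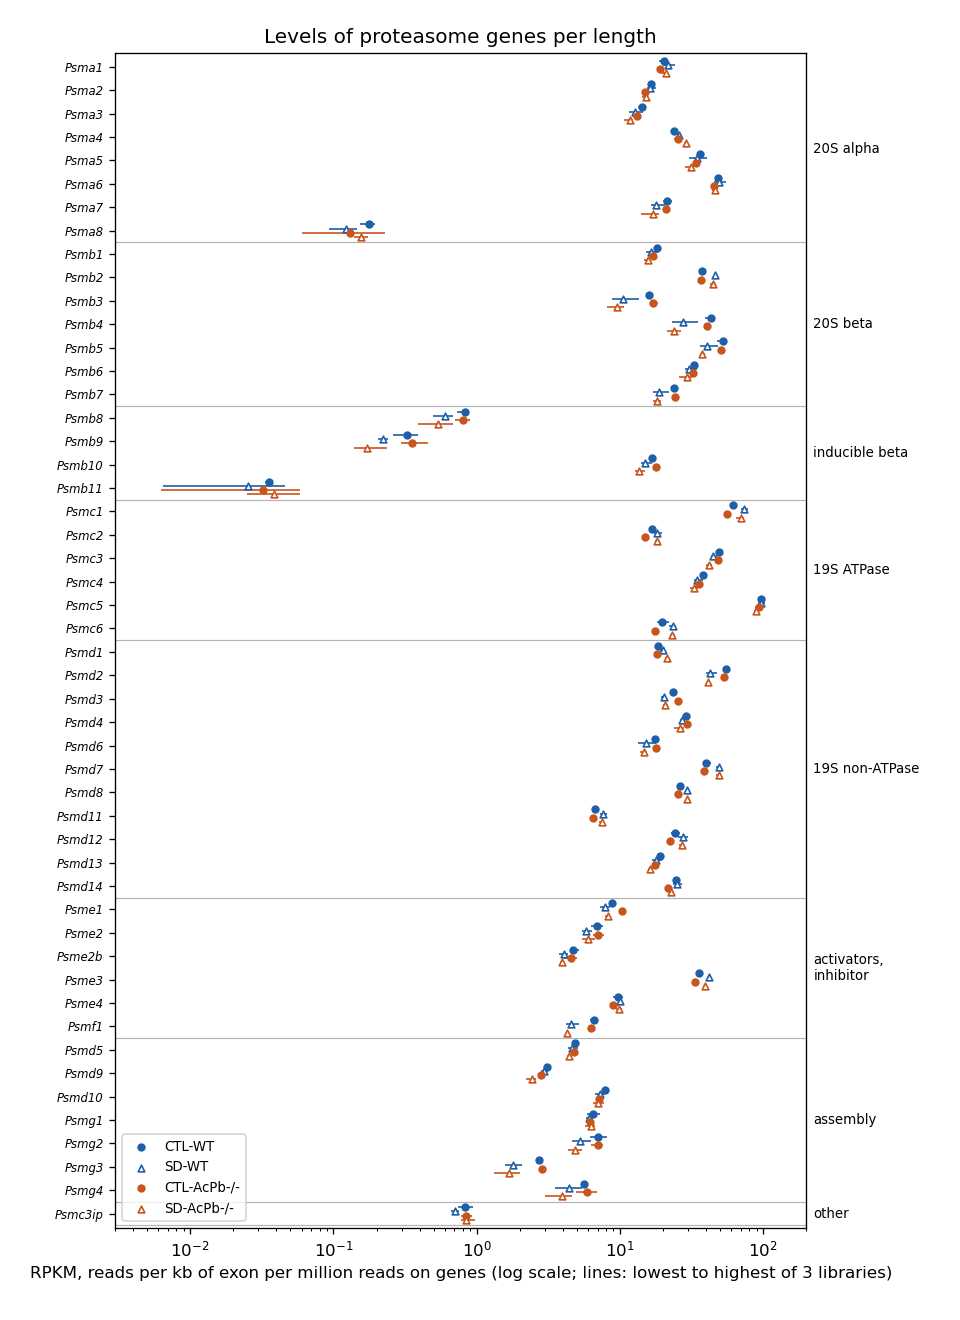
Level of each proteasome gene per length of exon (x axis, RPKM, which is reads per kb of exon for every 1000000 reads on genes, log scale), one row per gene in its role group. Points are means of 3 libraries and lines run from the lowest to the highest library for each of the 4 groups. Psmc5 stands highest and Psmb11 lowest, and Psmb10 stands more than 10 times above Psmb8 and Psmb9.

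With SD in wild-type mice, 15 of the 50 members (30%) passed the threshold, 7 upregulated and 8 downregulated, and 25.4% of all 20417 genes tested did so (13.2% upregulated and 12.2% downregulated). Members that rose were Psmb2, Psmc1, Psmc6, Psmd7, Psmd8, Psmd11 and Psme3, and members that fell were Psmb3, Psmb4, Psmb5, Psmb7, Psmd2, Psmd3, Psmf1 and Psmg3. Subunits of the same particle thus moved in opposite directions, as did the calls over all genes. A gene passed the threshold when limma's test on log2(normalized count + 1) gave a Benjamini-Hochberg adjusted p under 0.05 over all genes tested, and log2 fold changes below are SD over control with their standard error. Where the mean normalized count was 10 or more, 33.9% of genes passed and so did 34.7% of the 49 members in that range, so the share in wild-type mice was near that of all expressed genes. In 24 members every SD library lay on one side of every control library, which was so for 40.2% of all genes. The median log2 fold change of the members was -0.084, and that of all genes tested was -0.0039. In tissue RNA, fewer cells of a type and less RNA per cell cannot be told apart.

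With SD in AcPb-/- mice, 25 of the 50 members (50%) passed the threshold, 11 upregulated and 14 downregulated, against 27.4% of 20574 genes (14.1% upregulated and 13.3% downregulated). At a mean count of 10 or more the shares were 53.1% of the members and 37.3% of all genes. All 15 members called in wild-type mice were also called in AcPb-/- mice in the same direction, which is 100% of the first list and 60.0% of the second. Over all genes tested in both, calls shared in direction were 74.6% of the wild-type and 68.7% of the AcPb-/- calls. The 10 members called in AcPb-/- mice alone were Psma4, Psmc2, Psmd1 and Psmd12, which rose, and Psmb9, Psmb10, Psmc3, Psmd6, Psme1 and Psmg2, which fell. The groups did not overlap in 31 members, against 42.3% of all genes, and the median of the members was -0.083, against 0.014 over all genes. No library entered both SD comparisons. A call in one genotype alone does not show a difference between genotypes, for which the test is given below.

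**Figure D2:**
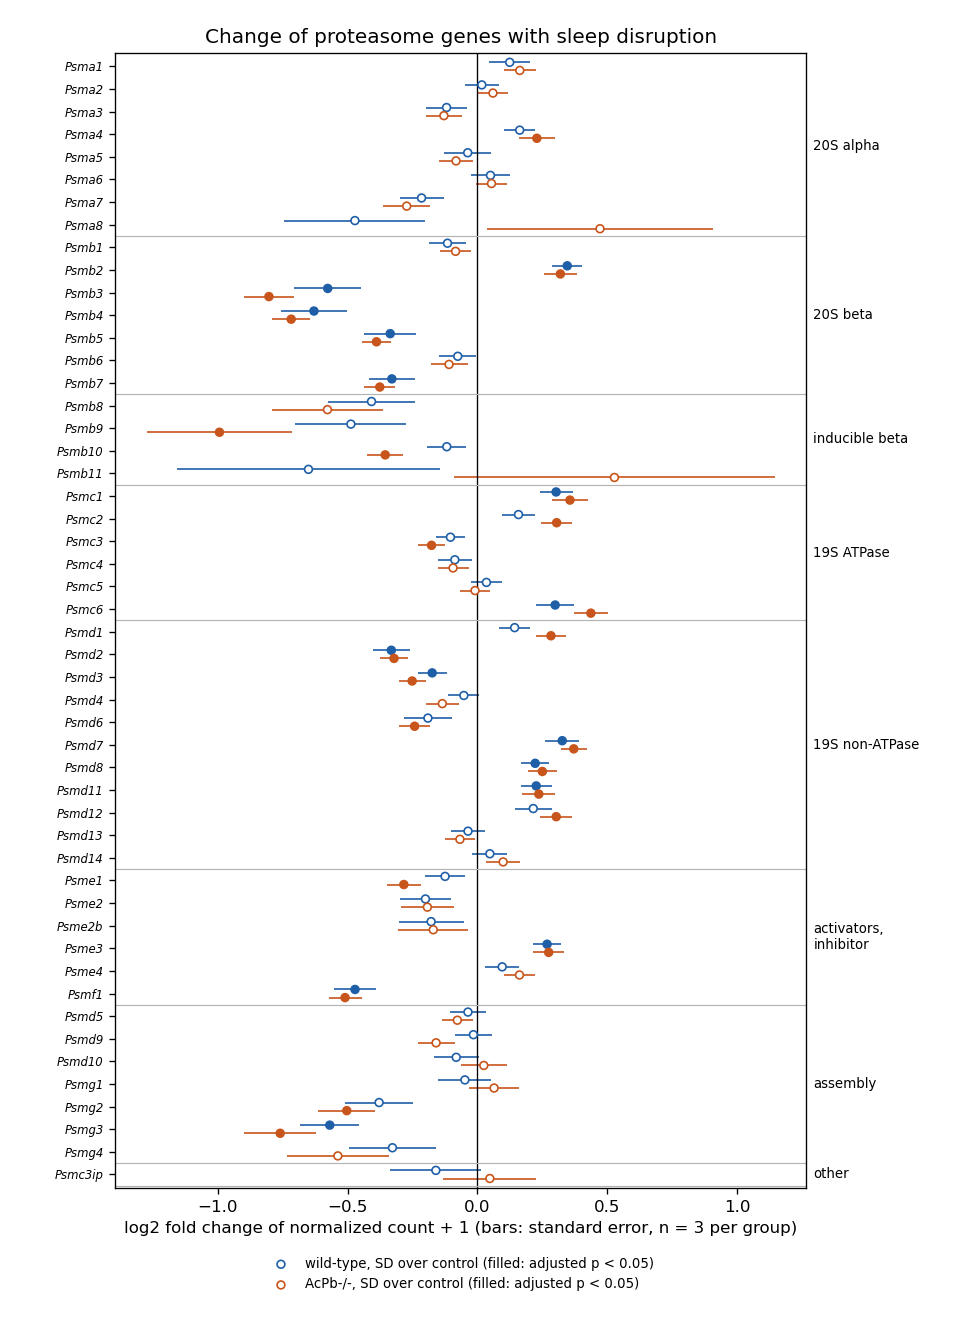
Log2 fold change of normalized count + 1 with SD for each proteasome gene (x axis), wild-type mice in blue and AcPb-/- mice in orange, with bars for the standard error (n = 3 libraries per group). Filled points passed an adjusted p of 0.05. In the beta ring Psmb3, Psmb4, Psmb5 and Psmb7 stand left of 0 and Psmb2 right of 0 in both genotypes, while the alpha ring holds 1 filled point, Psma4 in AcPb-/- mice.

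Of the 8 alpha subunits, none passed the threshold in wild-type mice with limma, and Psma4 alone rose in AcPb-/- mice. In wild-type mice 2 of the 8 had an unadjusted p under 0.05 with limma, as did 7613 of all 20417 genes. Psma4 (chromosome 9, 54950790 to 54958030, plus strand) had 2692, 2625 and 2837 normalized counts in CTL-WT 1, 2 and 3 and 2941, 3123 and 3062 in SD-WT 1, 2 and 4. Its AcPb-/- values were 2534, 2817 and 2858 in CTL-AcPbKO 3, 4 and 5 and 3314, 3012 and 3289 in SD-AcPbKO 2, 3 and 4. The groups did not overlap in either genotype, but the wild-type difference missed the threshold (log2 fold change of 0.16 ± 0.059, adjusted p = 0.0684) and the AcPb-/- one passed it (log2 fold change of 0.23 ± 0.069, adjusted p = 0.0384). Leaving out 1 library ended the AcPb-/- call in 5 of 6 cases. The other alpha subunits of the constitutive ring had log2 fold changes between -0.22 for Psma7 and 0.12 for Psma1 in wild-type mice, and between -0.27 and 0.16 for the same 2 genes in AcPb-/- mice. Summed over the 8 alpha genes, RPM ran from 388 to 421 in undisturbed wild-type mice and from 368 to 441 after SD, so the groups overlapped.

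The beta ring held 4 of the 8 members that fell in both genotypes. Of its 7 constitutive subunits Psmb3, Psmb4, Psmb5 and Psmb7 fell in both genotypes, Psmb2 rose in both, and Psmb1 and Psmb6 passed in neither. Summed over the 7 genes, RPM values were 424 to 450.3 in undisturbed wild-type mice and 336 to 423 after SD, and 421 to 441 in undisturbed AcPb-/- mice and 321 to 360.3 after SD. The sum was thus lower in every SD library than in every control of its genotype, narrowly so for SD-WT 4, the library at 423.

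Psmb4 (chromosome 3, 94884093 to 94886961, minus strand), a structural subunit, showed the widest change of the wild-type calls. Its normalized counts were 3710.3, 4181 and 4335 in CTL-WT 1, 2 and 3 and 2380.1, 2277 and 3347 in SD-WT 1, 2 and 4. The AcPb-/- libraries gave 3417, 3638 and 3669 in CTL-AcPbKO 3, 4 and 5 and 1975, 2358 and 2200.1 in SD-AcPbKO 2, 3 and 4. Every SD library lay below every control of its genotype, with SD-WT 4 nearest to them. Psmb4 fell by 35.4% in wild-type mice (log2 fold change of -0.63 ± 0.13, adjusted p = 0.00631) and fell by 39.2% in AcPb-/- mice (log2 fold change of -0.72 ± 0.074, adjusted p = 0.00072).

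Psmb3 (chromosome 11, 97703399 to 97713500, plus strand), another structural beta subunit, had 1770.4, 1787 and 1728 normalized counts in the wild-type controls and 1057, 1020.2 and 1527 after SD. Among AcPb-/- libraries it had 1673, 1939 and 1725 in controls and 893, 1122 and 1050.0 after SD. Every SD library lay below every control of its genotype, again with SD-WT 4 the highest of its group. Psmb3 fell in wild-type mice (log2 fold change of -0.58 ± 0.13, adjusted p = 0.01) and in AcPb-/- mice (log2 fold change of -0.80 ± 0.097, adjusted p = 0.00111), and leaving out SD-WT 1 moved the wild-type adjusted p to 0.0502.

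The cutting subunits did not move as one. Psmb5, the chymotrypsin-like subunit (chromosome 14, 54614119 to 54618022, minus strand), had 2098, 2362 and 2297 normalized counts in wild-type controls and 1638, 1634 and 2113 after SD. SD-WT 4 lay above the lowest control, so these groups overlapped, and the difference passed narrowly (log2 fold change of -0.34 ± 0.10, adjusted p = 0.0322). The counts in AcPb-/- mice were 2050.1, 2075 and 2047 in controls and 1597, 1614 and 1504 after SD, without overlap (log2 fold change of -0.39 ± 0.057, adjusted p = 0.00211). With the Xist term Psmb5 no longer passed in wild-type mice (adjusted p = 0.0847), and leaving out any of 4 libraries (CTL-WT 2 or 3, SD-WT 1 or 2) also ended that call, with an adjusted p of up to 0.132. Of its 100-base exon stretches, 22.2% also occur in Gm3375 or Mir686, so some reads could be split between them.

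Psmb7, the trypsin-like subunit (chromosome 2, 38588036 to 38644087, minus strand), had 3953, 3919 and 3978 normalized counts in wild-type controls and 2899, 2903 and 3687 after SD. Its AcPb-/- values were 3683, 3978 and 3665 in controls and 2794, 2891 and 3038 after SD. It fell in both (wild-type log2 fold change of -0.33 ± 0.089, adjusted p = 0.0215; AcPb-/- log2 fold change of -0.38 ± 0.060, adjusted p = 0.00303), and its wild-type call was lost without any 1 of 5 libraries, SD-WT 4 being the exception (adjusted p of up to 0.0976). Psmb6, the caspase-like subunit (chromosome 11, 70525367 to 70527858, plus strand), had 2958, 3026 and 2957 in controls and 2671, 2696 and 3139 after SD in wild-type mice and 2795, 2615 and 2788 in controls and 2313, 2712 and 2586 after SD in AcPb-/- mice. Its groups overlapped in both genotypes and neither difference passed (wild-type log2 fold change of -0.076 ± 0.071, adjusted p = 0.486; AcPb-/- log2 fold change of -0.11 ± 0.071, adjusted p = 0.302). Psmb7 and Psmb6 thus differed in call, although the difference between the 2 genes was not tested.

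Psmb2 was the single beta subunit that rose. This structural subunit (chromosome 4, 126677630 to 126709714, plus strand) had 2211, 2206 and 2103 normalized counts in CTL-WT 1, 2 and 3 and 2697, 2838 and 2752 in SD-WT 1, 2 and 4. The AcPb-/- libraries gave 2006, 2076 and 1923 in controls and 2557, 2342 and 2599 after SD. Every SD library lay above every control in both genotypes, and the increase was 27.1% in wild-type mice (log2 fold change of 0.35 ± 0.057, adjusted p = 0.00252) and 24.8% in AcPb-/- mice (log2 fold change of 0.32 ± 0.064, adjusted p = 0.00747). No single left-out library ended either call, in 12 refits.

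**Figure D3:**
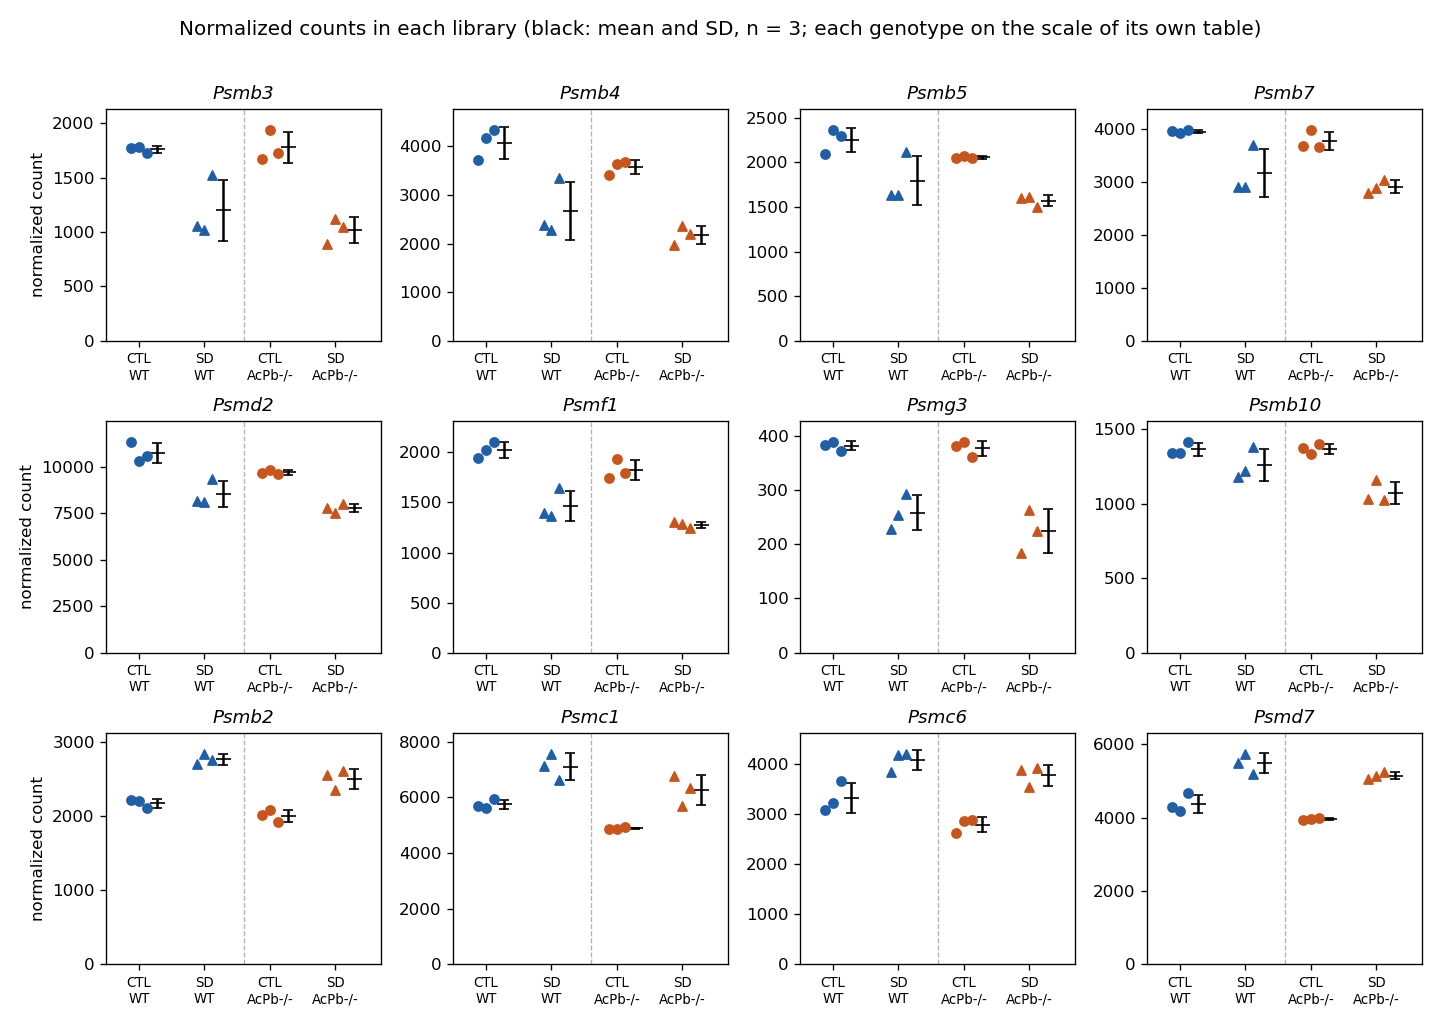
Normalized counts of 12 proteasome genes (y axis, from 0) in each library, circles for controls and triangles for SD, wild-type in blue and AcPb-/- in orange, with black marks for the mean and standard deviation of 3 libraries. Each genotype is on the scale of its own deposited table. Of the panels with downregulated genes, SD-WT 4 is the highest wild-type SD point in Psmb3, Psmb4, Psmb5, Psmb7, Psmd2, Psmf1 and Psmg3.

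Of the 4 inducible beta subunits none passed in wild-type mice with limma, and Psmb9 and Psmb10 fell in AcPb-/- mice. In wild-type mice 2 of the 4 had an unadjusted p under 0.05 with limma, as did 7613 of all 20417 genes. Psmb9 (chromosome 17, 34181987 to 34187764, minus strand) had 69.1, 58 and 46.1 normalized counts in wild-type controls and 43.7, 41.1 and 36.6 after SD (log2 fold change of -0.49 ± 0.21, adjusted p = 0.124). Among AcPb-/- libraries it had 49.4, 51.4 and 75.5 in controls and 24.9, 39.4 and 23.5 after SD, where it fell by 49.8% (log2 fold change of -0.99 ± 0.28, adjusted p = 0.0303). The groups did not overlap in either genotype, the counts were low, and leaving out any of 4 libraries ended the AcPb-/- call (adjusted p of up to 0.111).

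Psmb10 (chromosome 8, 105935735 to 105938444, minus strand) had 1343, 1338 and 1416 normalized counts in wild-type controls and 1180.0, 1219 and 1383 after SD, which overlapped (log2 fold change of -0.12 ± 0.076, adjusted p = 0.29). The counts in AcPb-/- mice were 1374, 1336 and 1401 in controls and 1034, 1157 and 1026 after SD, which did not (log2 fold change of -0.36 ± 0.070, adjusted p = 0.00695). Psmb8 (chromosome 17, 34197721 to 34201454, plus strand) had 141, 143 and 118 in controls and 114, 83.9 and 105 after SD in wild-type mice and 124, 137 and 108 in controls and 62.6, 105 and 83.5 after SD in AcPb-/- mice. Every SD library of Psmb8 lay below every control of its genotype, and neither difference passed (wild-type log2 fold change of -0.41 ± 0.17, adjusted p = 0.103; AcPb-/- log2 fold change of -0.58 ± 0.21, adjusted p = 0.0767). Psmb11 was at 1.37 to 12.7 normalized counts in the 12 libraries, too low for a difference to be detectable at this depth.

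Markers of the cells and signals that these subunits are known for were read beside them. Of 7 interferon-stimulated genes none passed in either genotype, and their summed level was 48.2 to 52.2 RPM in wild-type controls and 47.9 to 53.1 after SD. Of 6 microglial markers 1 rose in wild-type mice, and 2 fell in AcPb-/- mice, where their summed level was 279 to 301 in controls and 212 to 255 after SD. The part of microglial RNA in the lower Psmb9 and Psmb10 values was not tested. Relative to the constitutive counterpart, the level of Psmb10 was 69.4% ± 1.79 of Psmb7 in wild-type controls and 80.4% ± 4.62 after SD, and 73.0% ± 4.94 and 74.1% ± 6.25 in AcPb-/- mice (standard deviation, n = 3). The wild-type groups did not overlap in this ratio and the AcPb-/- groups did. The level of Psmb9 relative to Psmb6 was 0.991% ± 0.199 and 0.737% ± 0.126 in wild-type mice, with overlap, and 1.098% ± 0.254 and 0.586% ± 0.143 in AcPb-/- mice, without. For Psmb8 relative to Psmb5 it was 1.59% ± 0.213 and 1.51% ± 0.297 in wild-type mice and 1.59% ± 0.175 and 1.42% ± 0.347 in AcPb-/- mice, and the groups overlapped in both.

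Of the 6 ATPases, Psmc1 and Psmc6 rose in both genotypes, Psmc2 rose and Psmc3 fell in AcPb-/- mice alone, and Psmc4 and Psmc5 passed in neither. Psmc1 (chromosome 12, 100110154 to 100123405, plus strand), whose tail helps to open the gate of the core, had 5696, 5621 and 5921 normalized counts in wild-type controls and 7117, 7566 and 6612 after SD. Its AcPb-/- values were 4872, 4856 and 4918 in controls and 6764, 5686 and 6348 after SD. The increase was 23.4% in wild-type mice (log2 fold change of 0.30 ± 0.064, adjusted p = 0.00727) and 28% in AcPb-/- mice (log2 fold change of 0.36 ± 0.070, adjusted p = 0.0068), with no overlap in either. Psmc6 (chromosome 14, 45329788 to 45349705, plus strand) had 3094, 3220.4 and 3667 in controls and 3855, 4190.4 and 4216 after SD in wild-type mice and 2623, 2867 and 2899 in controls and 3882, 3547 and 3929 after SD in AcPb-/- mice. It too rose in both (wild-type log2 fold change of 0.30 ± 0.074, adjusted p = 0.0152; AcPb-/- log2 fold change of 0.44 ± 0.066, adjusted p = 0.00237), although CTL-WT 3 stood near the SD libraries and the wild-type call was lost without CTL-WT 2 or without SD-WT 2 (adjusted p of up to 0.0726).

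Psmc2 had a log2 fold change of 0.16 in wild-type mice (adjusted p = 0.0978) and 0.31 in AcPb-/- mice (adjusted p = 0.00656). Psmc3 was at -0.10 (adjusted p = 0.203) and -0.18 (adjusted p = 0.0371), and its AcPb-/- call was lost in each of the 6 fits without 1 library. Psmc5, the most abundant member, was at 0.035 ± 0.058 and -0.0093 ± 0.059. The 6 ATPase genes summed to 604 to 640.2 RPM in wild-type controls and 619.9 to 668 after SD, which overlapped. In AcPb-/- mice the sum was 572 to 582 in controls and 600.0 to 624 after SD, which did not.

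The 11 non-ATPase subunits divided. In both genotypes Psmd7, Psmd8 and Psmd11 rose and Psmd2 and Psmd3 fell, Psmd1 and Psmd12 rose and Psmd6 fell in AcPb-/- mice alone, and Psmd4, Psmd13 and Psmd14 passed in neither. Psmd2 (chromosome 16, 20651652 to 20663414, plus strand), a large scaffold that docks ubiquitin shuttle proteins, had 11337, 10282 and 10592 normalized counts in wild-type controls and 8182, 8115 and 9325 after SD. The AcPb-/- libraries gave 9671, 9841 and 9595 in controls and 7795, 7527 and 7975 after SD. Every SD library was below every control, and Psmd2 fell by 20.5% in wild-type mice (log2 fold change of -0.33 ± 0.071, adjusted p = 0.00778) and fell by 20% in AcPb-/- mice (log2 fold change of -0.32 ± 0.053, adjusted p = 0.00327).

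Psmd7 (chromosome 8, 107580381 to 107588464, minus strand), which pairs with the deubiquitinase Psmd14, moved the other way. It had 4273, 4169.8 and 4656 normalized counts in wild-type controls and 5490.3, 5739 and 5195 after SD, and 3945, 3969 and 4000.2 in controls and 5041, 5143 and 5227 after SD in AcPb-/- mice. Every SD library was above every control, by 25.4% on the mean log scale in wild-type mice (log2 fold change of 0.33 ± 0.065, adjusted p = 0.00554) and 29.3% in AcPb-/- mice (log2 fold change of 0.37 ± 0.050, adjusted p = 0.00151). Its partner Psmd14 was at 0.048 ± 0.067 and 0.099 ± 0.067, and Psmd4, a ubiquitin receptor, at -0.052 ± 0.060 and -0.14 ± 0.063.

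The other non-ATPase calls were smaller. Psmd8 was at 0.22 ± 0.054 in wild-type mice and 0.25 ± 0.055 in AcPb-/- mice, Psmd11 at 0.23 ± 0.060 and 0.24 ± 0.063, and Psmd3 at -0.17 ± 0.056 and -0.25 ± 0.052. Their wild-type adjusted p ran from 0.0136 for Psmd8 to 0.0452 for Psmd3, and each lost its wild-type call without at least 2 of the 6 libraries, one at a time. Psmd11 lost its AcPb-/- call without any of 4 libraries (CTL-AcPbKO 4 or 5, SD-AcPbKO 2 or 4), and Psmd6 without any of 3 (CTL-AcPbKO 4 or 5, SD-AcPbKO 2), with an adjusted p of up to 0.0857 and 0.0709. Psmd12 missed the threshold in wild-type mice by little (log2 fold change of 0.22 ± 0.072, adjusted p = 0.052) and passed in AcPb-/- mice (log2 fold change of 0.30 ± 0.062, adjusted p = 0.00799). The subunits of the lid and base did not sort by direction, and the 11 genes summed to 999 to 1029 RPM in wild-type controls and 953 to 1044 after SD.

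Of the activators, Psme3 rose in both genotypes, Psme1 fell in AcPb-/- mice alone, and Psme2, its near-copy Psme2b and Psme4 passed in neither. Psme3 (chromosome 11, 101316213 to 101323537, plus strand), the nuclear activator that works without ubiquitin, had 5136, 5006 and 5052 normalized counts in wild-type controls and 5999.8, 6200.1 and 6102 after SD, and 4400.1, 4545 and 4474 in controls and 5685, 5093 and 5469 after SD in AcPb-/- mice. The SD libraries lay above the controls without overlap, by 20.4% (log2 fold change of 0.27 ± 0.052, adjusted p = 0.00514) and 21% (log2 fold change of 0.27 ± 0.059, adjusted p = 0.00981). Psme1, which forms the interferon-induced activator with Psme2 (chromosome 14, 55578123 to 55581529, plus strand), had 966, 922 and 922 in controls and 796, 870.4 and 914 after SD in wild-type mice (log2 fold change of -0.12 ± 0.076, adjusted p = 0.267). Among AcPb-/- libraries it had 1024, 1073 and 1013 in controls and 827, 853 and 874 after SD (log2 fold change of -0.28 ± 0.065, adjusted p = 0.0135). Leaving out CTL-AcPbKO 4 moved this adjusted p to 0.0609.

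Psme2 (chromosome 14, 55587441 to 55591113, minus strand) had 538, 571 and 641 in controls and 474, 499.8 and 549 after SD normalized counts in wild-type mice and 515, 556 and 618 in controls and 458, 542 and 476 after SD in AcPb-/- mice. The groups overlapped in both genotypes (wild-type log2 fold change of -0.20 ± 0.097, adjusted p = 0.162; AcPb-/- log2 fold change of -0.19 ± 0.10, adjusted p = 0.206). Its values are uncertain, since 18.4% of its 100-base exon stretches occur in Psme2b, and 52.0% of those of Psme2b occur in Psme2. Psme4 (chromosome 11, 30771726 to 30880361, plus strand), an activator known from chromatin and spermatogenesis, had 3646, 3884 and 4195 in controls and 4129, 4333 and 4051 after SD in wild-type mice and 3398, 3282 and 3576 in controls and 3901, 3934 and 3639 after SD in AcPb-/- mice (wild-type log2 fold change of 0.095 ± 0.066, adjusted p = 0.328; AcPb-/- log2 fold change of 0.16 ± 0.060, adjusted p = 0.0767).

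Psmf1 (chromosome 2, 151715812 to 151744186, minus strand), first described as an inhibitor of the core, fell in both genotypes. It had 1945, 2026 and 2105 normalized counts in CTL-WT 1, 2 and 3 and 1394, 1360.0 and 1639.7 in SD-WT 1, 2 and 4. The counts in AcPb-/- mice were 1741, 1932 and 1792 in CTL-AcPbKO 3, 4 and 5 and 1307, 1281 and 1246 in SD-AcPbKO 2, 3 and 4. The groups stood apart in both genotypes, and Psmf1 fell by 27.9% in wild-type mice (log2 fold change of -0.47 ± 0.080, adjusted p = 0.00278) and fell by 29.8% in AcPb-/- mice (log2 fold change of -0.51 ± 0.064, adjusted p = 0.00121). Both calls held without any 1 library and with the Xist term (adjusted p = 0.00698 and 0.00266). Without the 4 libraries with Xist neither passed (adjusted p = 0.0947 and 0.062), with log2 fold changes of -0.41 and -0.45.

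Of the 7 assembly factors, Psmg3 fell in both genotypes and Psmg2 in AcPb-/- mice alone. Psmg3 (chromosome 5, 139823592 to 139826885, minus strand), a chaperone of the alpha ring, had 383, 388 and 372 normalized counts in wild-type controls and 227, 254 and 293 after SD. Its AcPb-/- values were 381, 387 and 361 in controls and 184, 264 and 225 after SD. The controls of both genotypes lay within 361 to 388, each on the scale of its own table, and every SD library was below 300 (wild-type log2 fold change of -0.57 ± 0.11, adjusted p = 0.0058; AcPb-/- log2 fold change of -0.76 ± 0.14, adjusted p = 0.00514). Its exons overlap those of Gm26938 on the same strand, so reads of the 2 genes cannot be told apart there.

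Psmg2 (chromosome 18, 67641599 to 67654162, plus strand), which works on the same ring, had 520.2, 567 and 673 in controls and 412, 407 and 537 after SD in wild-type mice, with SD-WT 4 above CTL-WT 1 (log2 fold change of -0.38 ± 0.13, adjusted p = 0.0583). The AcPb-/- libraries gave 492, 573 and 604 in controls and 362, 433 and 381 after SD (log2 fold change of -0.50 ± 0.11, adjusted p = 0.0112), and it lost that call with the Xist term (adjusted p = 0.104) and without SD-AcPbKO 2 (adjusted p = 0.0518). Psmg4 was at -0.33 ± 0.17 and -0.54 ± 0.20 and did not pass, and neither did Psmg1. The chaperones of the ATPase ring, Psmd5, Psmd9 and Psmd10, had log2 fold changes of -0.037, -0.016 and -0.082 in wild-type mice and -0.077, -0.16 and 0.024 in AcPb-/- mice, none past the threshold. The other symbol, Psmc3ip, was at -0.16 ± 0.18 and 0.048 ± 0.18.

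The genotypes were then compared directly. Between undisturbed AcPb-/- and wild-type mice 0 members passed with limma, DESeq2 or edgeR, and 0.0197% of all genes passed with limma. At an unadjusted p under 0.05 there were 6 members with limma, 5 with DESeq2 and 6 with edgeR. Over all 20273 genes these counts were 1730, 1135 and 1600. The smallest p was that of Psme1, higher in AcPb-/- mice (log2 fold change of 0.23 ± 0.063, adjusted p = 0.394), whose libraries did not overlap. Psmc1 (-0.15 ± 0.047) and Psmd14 (-0.19 ± 0.062) came next, both lower in AcPb-/- mice. In 16 of the 50 members every AcPb-/- library lay on one side of every wild-type library, against 14.4% of all genes. The median log2 fold change of the 50 members was -0.051, with 36 of 50 below 0, against 0.00063 over all genes.

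Between AcPb-/- and wild-type mice after SD 0 members passed with any of these tools, and 0.0145% of all genes passed with limma. At an unadjusted p under 0.05 there were 2 members with each tool, and 1265 of 20621 genes with limma. Psmd9 had the smallest p (log2 fold change of -0.28 ± 0.078, adjusted p = 0.509) and was lower in every AcPb-/- library. The groups did not overlap in 7 members and in 11.4% of all genes. The median of the members was -0.075, with 41 of 50 below 0, against 0.0020 over all genes. Without SD-WT 4 the median was -0.0080, with 31 of 50 below 0. The members share their libraries, so these counts of signs are descriptions of the libraries.

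The genotype by SD interaction sets the 2 SD effects against each other in a fit of all 12 libraries. It passed for 0 members with each tool and for 0.0% of all genes with limma. At an unadjusted p under 0.05 were 839 of 20978 genes with limma and 1 member with each tool. With limma this was Psmb10, whose SD effect was lower in AcPb-/- mice by -0.24 ± 0.10 on the log2 scale (adjusted p = 0.986). The estimate for Psmb9 was -0.51 ± 0.36 (adjusted p = 0.986) and that for Psme1 -0.16 ± 0.091 (adjusted p = 0.986). An adjusted p of this size does not show that the genotypes respond alike. The log2 fold changes had the same sign in both genotypes for 44 of 50 members, the exceptions being Psma8, Psmb11, Psmc3ip, Psmc5, Psmd10 and Psmg1, which passed in neither. That is 88% of the members, against 79.6% of all genes tested in both and 85.1% of those with a mean count of 10 or more in both.

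**Figure D4:**
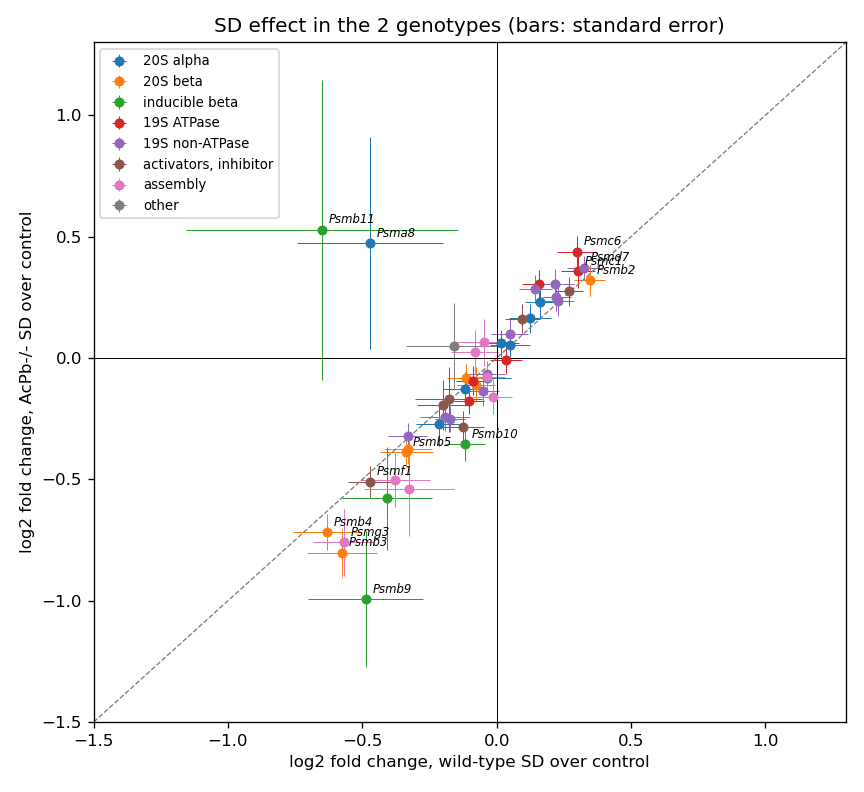
Log2 fold change with SD in wild-type mice (x axis) against that in AcPb-/- mice (y axis) for the 50 members, coloured by role, with bars for the standard errors and a dashed line of equality. The members called in both genotypes lie near the line, from Psmb3 and Psmg3 at the lower left to Psmc6 at the upper right. Psmb9, called in AcPb-/- mice alone, lies below the line and is the lowest point on the y axis. The low-count genes Psmb11 and Psma8 lie far from the line with wide bars.

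Because of the libraries that went against the label, the SD comparisons were fitted again. With a term for Xist in a fit of all 12 libraries, 16 members passed in wild-type mice (9 upregulated, 7 downregulated) and 26 in AcPb-/- mice (13 upregulated, 13 downregulated), against 19.3% and 24.7% of all genes. Of the 15 members called in both genotypes 14 passed in both there, Psmb5 being the exception, and Psma4 and Psmd12 passed in both in addition. Without the 4 libraries, which leaves 1 control in each genotype that is assumed to vary like the other groups, 0 members passed in wild-type mice and 6 in AcPb-/- mice, against 3.31% and 10.1% of all genes. All 15 kept the sign of their log2 fold change in both genotypes, but the SD libraries were the same. Apart from Psmb5 in wild-type mice, these already lay on one side of every control of their genotype, so the sign was all but fixed. The estimate for Psmb4, for example, was -0.63 with all libraries and -0.50 without those with Xist in wild-type mice, and -0.72 and -0.65 in AcPb-/- mice.

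SD-WT 4 stood apart from the other wild-type SD libraries in the downregulated members. It was the highest of the 3 SD libraries in 8 of the 8 members that fell in wild-type mice and the lowest in 2 of the 7 that rose. Without it 23 members passed in wild-type mice, 7 upregulated and 16 downregulated, and the share of all genes rose from 25.4% to 30.7%. The median log2 fold change of the members was then -0.14 in place of -0.084. Without CTL-WT 2 the count was 9, against 13.3% of all genes. Of the 15 members called in both genotypes, Psmb2, Psmb4, Psmc1, Psmd2, Psmd7, Psme3, Psmf1 and Psmg3 kept their call in all 12 fits that left out 1 library.

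Length and base composition were compared between the members that rose and those that fell. The 7 that rose in both genotypes had a median exon length of 2949 bases and a median GC content of 49.7%, and the 8 that fell had 3157 bases and 50.7%. The medians of all 50 were 2804 bases and 49.7%. With each library's trend with length and GC content removed, 14 members passed in wild-type mice and 23 in AcPb-/- mice, against 25.3% of all genes in each. With every library thinned to the smallest total the counts were 16 and 25, against 22.1% and 25.2% of all genes. The 7 lay on 6 chromosomes and the 8 also on 6. Exons of 12 members (Psma4, Psma5, Psmb7, Psmb8, Psmb9, Psmc3, Psmc3ip, Psmd1, Psmd3, Psmd9, Psmd13 and Psme1) overlap exons of a gene on the opposite strand, and since the counted strand is not known, reads of such pairs may not be told apart there.

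Cell type markers also differed with SD. Of the 6 excitatory neuron markers 1 rose and 2 fell in wild-type mice and 1 rose and 1 fell in AcPb-/- mice. Their summed level was 1878 to 2021 RPM in wild-type controls and 1584 to 1790 after SD, and 2084 to 2193 and 1799.7 to 1910.2 in AcPb-/- mice, so it was lower in every SD library than in every control of its genotype. Of 5 oligodendrocyte markers 4 fell in wild-type mice, where their summed level was 2174 to 2675 RPM in controls and 1723 to 2303 after SD, and 1 fell in AcPb-/- mice. Of 5 astrocyte markers 2 fell in wild-type and 1 in AcPb-/- mice, and of 6 markers of striatal neurons 2 fell in wild-type mice and 0 passed in AcPb-/- mice with limma. Of 5 interneuron markers 1 rose and 1 fell in each genotype, and of 4 endothelial markers 3 rose and 1 fell in each. Without SD-AcPbKO 4, the library with choroid plexus markers, 21 members passed in AcPb-/- mice, 9 upregulated and 12 downregulated, against 17.6% of all genes. The part of these cells in the proteasome values was not tested.

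Genes that work with the proteasome were taken from a list of 36 with reads. In wild-type mice 8 rose and 7 fell (41.7% called, against 25.4% of all genes), and in AcPb-/- mice 10 rose and 8 fell (50%, against 27.4%). Of all genes with a mean count of 10 or more, 33.9% and 37.3% were called, which is nearer to the shares of the list. None of the list passed between genotypes or in the difference of SD effects with limma. The median log2 fold change of the list was -0.0086 in wild-type mice and -0.047 in AcPb-/- mice. Opposite directions were thus seen around the proteasome as well as within it, and also over all genes. There 13.2% rose and 12.2% fell in wild-type mice, and 14.1% rose and 13.3% fell in AcPb-/- mice.

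Rps27a and Ubb, which both encode ubiquitin, changed in opposite directions. Rps27a, which encodes ubiquitin fused to a ribosomal protein, fell from 4523 ± 328 to 2237 ± 528 normalized counts (mean ± standard deviation, n = 3) in wild-type mice (log2 fold change of -1.04 ± 0.13, adjusted p = 0.00083) and from 3886 ± 374 to 1965 ± 279.6 in AcPb-/- mice (log2 fold change of -0.99 ± 0.11, adjusted p = 0.000938). Ubb, a polyubiquitin gene, rose in both (log2 fold changes of 0.33 and 0.29), and lost its AcPb-/- call with the Xist term (adjusted p = 0.0586). Rps27a thus moved with Psmb3, Psmb4 and Psmf1, and Ubb with Psmb2 and Psmd7.

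Of the factors that bring substrates, Rad23b, a shuttle, rose from 10471 ± 226 to 15152 ± 1833 normalized counts in wild-type mice (log2 fold change of 0.53 ± 0.084, adjusted p = 0.00204) and from 9416 ± 661 to 14569 ± 1856 in AcPb-/- mice (log2 fold change of 0.62 ± 0.098, adjusted p = 0.00278). The shuttle Ubqln2 fell in both (-0.32 and -0.38), as did the unfoldase Vcp (-0.36 and -0.35). Uba6, an enzyme that activates ubiquitin, rose in both (0.35 and 0.59). The shuttles Rad23b and Ubqln2 thus went in opposite directions. Leaving out CTL-WT 2 ended the wild-type calls of Ubb, Uba6 and 3 genes of the next groups, Shfm1, Uchl5 and Ddi2, with adjusted p from 0.0512 for Uba6 to 0.182 for Ddi2.

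Of 11 further components and partners, Shfm1, the older symbol of the small regulatory subunit Sem1, rose from 1535 ± 163 to 1940.3 ± 169 normalized counts in wild-type mice (log2 fold change of 0.34 ± 0.090, adjusted p = 0.0205) and from 1376 ± 37.7 to 1859 ± 63.3 in AcPb-/- mice (log2 fold change of 0.43 ± 0.059, adjusted p = 0.00163). Uchl5, a deubiquitinase of the regulatory particle, rose as well (0.31 and 0.40). Zfand5, a zinc finger protein that stimulates the proteasome, fell from 8703 ± 708 to 5938 ± 413 in wild-type mice (log2 fold change of -0.55 ± 0.076, adjusted p = 0.00108) and from 8402 ± 923 to 5686 ± 147 in AcPb-/- mice (log2 fold change of -0.56 ± 0.082, adjusted p = 0.00214). Of 9 genes for the transcription of proteasome subunits and its activation, Ddi2, the protease that cleaves the factor Nfe2l1, and Maff, a small Maf protein, rose in both genotypes. Their log2 fold changes were 0.31 and 0.86 in wild-type mice and 0.43 and 0.96 in AcPb-/- mice, and Ddi2 missed the threshold in wild-type mice with the Xist term (adjusted p = 0.11). Nfe2l1, Nfe2l2 and the other members of that group did not pass.

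Since Nfe2l1 is known to act on proteasome genes through antioxidant response elements, the promoters were searched for the core of that element, written TGACNNNGC, on both strands. RefSeq windows of GRCm38.p6, from 250 bases before the start of the gene to the start, were at hand for 42 members in 45 windows, and 8 members had none. The core occurred in 5 of the 45 windows (11.1%), in Psmb5, Psmb6, Psmc6, Psmd9 and Psmd12, and in 10.2% of 32851 windows of all genes. The box CCAAT occurred in 15 of the 45 (33.3%) and in 33.8% of all. Both shares of the members were close to those of all genes. Matches are of letters and do not show binding, and an absent match says that these letters are not in this window.

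The 4 matches in subunits of the particle are shown in a stretch of 69 bases inside the searched window, 5′ to 3′ on the strand of the gene and with the match in capitals, because these members differ in response. Psmb5 fell in both genotypes, Psmc6 rose in both, Psmd12 rose in AcPb-/- mice alone and Psmb6 passed in neither. In Psmc6 and Psmd12 the core lies on the strand opposite to the gene.
Psmb5, chr14:54618004-54618072, minus strand: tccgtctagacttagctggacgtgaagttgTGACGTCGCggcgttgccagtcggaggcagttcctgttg
Psmb6, chr11:70525288-70525356, plus strand: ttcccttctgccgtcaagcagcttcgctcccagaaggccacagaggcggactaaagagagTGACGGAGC
Psmc6, chr14:45329574-45329642, plus strand: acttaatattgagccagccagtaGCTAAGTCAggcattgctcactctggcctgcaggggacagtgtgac
Psmd12, chr11:107479278-107479346, plus strand: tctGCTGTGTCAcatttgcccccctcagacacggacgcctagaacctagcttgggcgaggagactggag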

How the data were processed

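The authors sequenced somatosensory cortex RNA from a stranded mRNA kit (per the labels), aligned reads with HISAT2 to mm10 and counted them per gene (featureCounts per the labels, HTSeq per the methods). The counted strand and annotation are not given in the sources used here. Each of 5 deposited tables compares 2 groups of 3 libraries with DESeq2 and holds, per library, a signal, the read count divided by that library's size factor. Left unused were the authors' own columns of log2 fold changes, standard errors, statistics, p-values, adjusted p-values and means. The table that changes SD and genotype together was used for no test. Undoing the size factors gave whole reads for 100.0% of 732630 values (tolerance 0.01 read), and 0 of 439578 values compared between tables differed.

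Tests used limma 3.58.1 (R 4.3.3) with a variance trend on log2(normalized count + 1), per table, over genes with 1 or more reads in its libraries, with Benjamini-Hochberg adjustment and a threshold of 0.05. The plan named edgeR for raw counts and limma for normalized values, which these are. The interaction used the 12 libraries normalized together by median of ratios. Alternatives were DESeq2 1.42.0 and edgeR 4.0.16 on recovered reads, pseudocounts of 0.1 and 10, a mean of at least 10, no filter, no variance trend, an adjusted p under 0.01, all libraries in one fit, a term for libraries with over 1000 Xist reads, their removal, thinning to 26504840 reads (seed 1), removal of length and GC trends (loess span 0.3), centring, a replicate block and leaving out each library. The scripts were tested on simulated data. All 50 members matched GENCODE M21 on GRCm38, as did 98.5% of all genes, and levels per length divide by merged exon length. Values in every library are given for up to 2 members per role with the widest change among those called in each genotype with a mean of at least 100, for cutting and interferon-induced beta subunits, Psme1 to Psme4 and Psmf1. Of the partner genes up to 3 per direction are named by the same rule, and others were named after their values were seen. Some partner genes are counted but not reported singly here. Members and lists were chosen with earlier results of these data known. P-values measure the spread between the libraries, and intervals from read counts cover counting error alone. Python 3.11.15, NumPy 2.4.6, pandas 2.3.3 and matplotlib 3.10.9 made tables and figures.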

Additional observations from a re-analysis of the deposited data

How the results depend on the processing

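Differences in the low-count members Psmb11 and Psma8 were not detectable at this depth. The 15 members past the threshold with SD in wild-type mice became 8 at an adjusted p under 0.01, 9 with no filter, 4 with no variance trend and 0 without the libraries with Xist, and leaving out 1 library gave 9 to 23. The 25 in AcPb-/- mice became 6 without the libraries with Xist, and leaving out 1 library gave 19 to 26. Of all genes, 11.6% passed in wild-type mice at an adjusted p under 0.01, 12.0% with no filter and 12.4% with no variance trend. With no variance trend the share of the 50 members was below that of all genes. At an adjusted p under 0.01 and with no filter it was above. Leaving out 1 library gave 13.3% to 30.7% of all genes in wild-type mice and 16.6% to 26.6% in AcPb-/- mice. Between genotypes and in the difference of SD effects 0 members passed in every setting run. The median of the members between undisturbed AcPb-/- and wild-type mice was -0.051 and ran from -0.077, without CTL-WT 2, to -0.046 when 1 library was left out. For the difference of SD effects the median was -0.012 and ran from -0.048 to 0.043. The median for SD in wild-type mice was -0.084 and ran from -0.14, without SD-WT 4, to -0.044, without SD-WT 1, and that between genotypes after SD was -0.075 and ran from -0.10, without SD-WT 1, to -0.0080, without SD-WT 4. Between replicates, 1 standard deviation of the libraries' median member level was 0.067 and 0.075. In groups of 3, leaving out 1 library shifts a mean by less than its standard deviation whatever the values. That spread therefore does not show the shifts to be small. The other counts stayed within 1.5 times. Among 70 results for single genes, 362 of 420 refits without 1 library gave the same call. So did 866 of 980 refits under other settings, and no refit of either kind reversed its direction. These settings did not weigh alike. Pseudocounts of 0.1 and 10 left all 70 results the same, while removing the libraries with Xist weakened more results than any other setting among them. With the replicate block, counted apart, 18 of 70 were the same.

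The labels do not say that shared replicate numbers pair the libraries. Same-numbered libraries correlated at 0.11 and -0.087 in wild-type mice, -0.15 and -0.012 in AcPb-/- mice and 0.21 and 0.22 between genotypes after SD, from 2 pairs each. With the replicate block 0 members passed in any comparison, and neither did any other gene. Members at an unadjusted p under 0.05 were 27, 23, 13 and 3 for SD in wild-type mice, SD in AcPb-/- mice, genotype after SD and the difference of SD effects. Over all genes these were 6889 of 20417, 4662 of 20574, 2316 of 20621 and 1077 of 20978. The first 3 of these fits left 1 residual degree of freedom. Undisturbed genotypes share 1 number, so no such fit was made there.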
